A study of Mus musculus with 18 samples.

Results

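The 32 genes described here encode the transporters and enzymes that carry glucose to lactate, together with the oxygen-sensing factor HIF-1α and genes it is known to switch on. They were taken by name from a list of mouse symbols, and all 32 were found among the 24052 genes counted. RNA was read from the 3′ end of polyadenylated transcripts of bone marrow-derived macrophages of C57BL/6 mice, grown for 7 days with 20 ng/ml M-CSF, a macrophage growth factor. Experiment 1 held 12 libraries of wild-type cells, 3 in each of 4 groups. The vehicle group was left unstimulated. The compound group received dimethyl itaconate, a cell-permeable ester of the metabolite itaconate, at 0.25 mM for 12 h. The LPS group received vehicle and then 100 ng/ml of the bacterial lipopolysaccharide from E. coli 0111:B4 for 4 h, and the compound plus LPS group received both in that order. Experiment 2 held 3 libraries of Irg1-/- cells, which lack the enzyme that makes itaconate, and 3 of wild-type cells. Both groups of experiment 2 had LPS at 100 ng/ml with murine interferon gamma at 50 ng/ml for 24 h, so no unstimulated cells stand beside them. The labels do not say how the Irg1 allele was made, whether the wild-type mice were littermates, or whether replicates came from separate animals or cultures. P-values therefore measure the spread between these libraries, which may be technical.

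Glycolysis splits glucose into pyruvate, and lactate dehydrogenase turns pyruvate to lactate when respiration does not take it up. HIF-1 is a pair of proteins whose alpha subunit is hydroxylated and destroyed while oxygen is plentiful, and its targets include most glycolytic genes and genes for vessel growth, collagen folding and mitochondrial turnover. In macrophages activated by LPS, glycolysis is known to rise and HIF-1α to be stabilised even with oxygen present. Itaconate is a product of the same activated cells and is known to inhibit succinate dehydrogenase of the mitochondria.

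For 5 genes whose transcripts carry the comparisons below, the stretch before an annotated start is shown. It is marked for the letters HIF-1 is known to bind, the hypoxia response element core. Each is the 250 bases before an annotated start in RefSeq's GRCm38.p6, written 5′ to 3′ on the strand of the gene. Capitals mark the letters ACGTG or GCGTG, or their reverse complements CACGT and CACGC. Slc2a1 (Entrez gene 20525, chromosome 4 from 119108745 to 119137330) encodes the main basal glucose transporter, and its window was chr4:119108495-119108744 on the plus strand.
Slc2a1: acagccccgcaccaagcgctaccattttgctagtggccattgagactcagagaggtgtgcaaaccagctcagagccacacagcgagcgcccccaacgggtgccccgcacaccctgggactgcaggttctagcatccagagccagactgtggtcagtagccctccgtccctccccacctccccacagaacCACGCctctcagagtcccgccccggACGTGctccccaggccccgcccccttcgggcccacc
Slc2a6 (Entrez gene 227659, chromosome 2 from 27021363 to 27028000) encodes a hexose transporter of the lysosomal membrane, and its window was chr2:27027999-27028248 on the minus strand.
Slc2a6: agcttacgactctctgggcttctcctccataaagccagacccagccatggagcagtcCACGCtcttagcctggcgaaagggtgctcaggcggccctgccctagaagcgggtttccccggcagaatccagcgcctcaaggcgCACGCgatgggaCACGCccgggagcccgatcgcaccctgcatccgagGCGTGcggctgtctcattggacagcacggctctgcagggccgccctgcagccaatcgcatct
Hk2 (Entrez gene 15277, chromosome 6 from 82725025 to 82774454) encodes the inducible hexokinase, and its window was chr6:82774455-82774704 on the minus strand.
Hk2: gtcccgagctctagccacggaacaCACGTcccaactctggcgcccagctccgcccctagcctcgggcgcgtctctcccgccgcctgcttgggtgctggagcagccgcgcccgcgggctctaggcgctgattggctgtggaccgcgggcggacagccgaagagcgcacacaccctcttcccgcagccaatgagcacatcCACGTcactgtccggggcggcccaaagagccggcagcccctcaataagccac
Pgam1 (Entrez gene 18648, chromosome 19 from 41911871 to 41918665) encodes phosphoglycerate mutase, and its window was chr19:41911621-41911870 on the plus strand.
Pgam1: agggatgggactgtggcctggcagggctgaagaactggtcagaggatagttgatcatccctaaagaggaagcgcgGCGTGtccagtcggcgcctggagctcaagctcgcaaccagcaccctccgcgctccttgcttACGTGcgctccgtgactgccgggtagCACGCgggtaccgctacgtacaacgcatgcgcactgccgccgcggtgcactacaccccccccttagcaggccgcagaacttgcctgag
Ankrd37 (Entrez gene 654824, chromosome 8 from 45996908 to 46000414) encodes an ankyrin-repeat protein known as a HIF-1 target, and its window was chr8:45999851-46000100 on the minus strand. That window lies inside the gene's span, before an annotated start downstream of the outermost one.
Ankrd37: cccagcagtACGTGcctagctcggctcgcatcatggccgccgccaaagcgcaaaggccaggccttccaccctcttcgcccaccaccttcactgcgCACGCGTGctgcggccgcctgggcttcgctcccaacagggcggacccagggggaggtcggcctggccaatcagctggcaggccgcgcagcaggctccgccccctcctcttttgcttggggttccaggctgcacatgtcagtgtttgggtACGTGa
The 5 windows held 2, 4, 2, 3 and 4 matches in that order. In Ankrd37 a pair of matches, on opposite strands, overlap. The match nearest the start began 36 bases before it in Slc2a1, 62 in Slc2a6, 52 in Hk2, 88 in Pgam1 and 6 in Ankrd37.

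Of the 30 genes of the set with a window in the table, 26 (86.7%) held at least 1 match in some window. Over all genes of the table the share was 41.5%. By window, 31 of 40 (77.5%) held a match, against 12679 of 32851 (38.6%) over all genes. The windows of the set also held more CG pairs, with a median of 15 against 6. Among all windows with at least 15 CG pairs, 67.9% held a match. A match is a description of these letters and not evidence of binding. The genes below move in different directions, and both Slc2a6 and Hk2 on one side and Slc2a1 and Pgam1 on the other hold matches.

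The 12 libraries of experiment 1 held from 955718 to 7629669 counts each, and the 6 of experiment 2 from 3088644 to 5491684. Acod1, the current symbol of Irg1, had 28.4, 14.8 and 31.4 CPM (counts scaled to a common library size) in the knockout libraries and 4130, 4660 and 4220 CPM in wild type. Here and below, CPM are scaled by TMM factors, which correct for composition, and triplets of values are in the order of replicates 1, 2 and 3. The LPS-exposure genes Il6, Il1b, Tnf and Acod1 summed to 10.2 to 25.8 CPM in vehicle and 9410 to 23200 CPM in LPS, as the labels have it. None of 8 macrophage markers was at 0 in any group, and they summed to 5150 to 7360 CPM in vehicle, 2990 to 4040 in compound, 4840 to 5120 in LPS and 4280 to 5400 in compound plus LPS. By contrast, markers of T and NK cells and of B cells each summed to at most 0.64 CPM in any library. Markers of neutrophils summed to 155 to 395 CPM in experiment 1 and 8.63 to 16.9 CPM in experiment 2, those of stroma to 20.5 to 69 CPM and 8.98 to 19.2 CPM, and those of dendritic cells to at most 6.95 and 13.6 CPM. LPS replicate 3 stood apart: it had the lowest total, 7 of the 32 genes were at 0 in it, and its log2 CPM correlated at 0.825 and 0.813 with the other LPS libraries, which correlated at 0.916 with each other. Results that rest on it are therefore given with and without it. In bulk RNA, fewer cells of a type and less RNA per cell cannot be told apart.

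A filter on low counts left 30 of the 32 genes in experiment 1 and 29 in experiment 2. Eno1, the enolase of most tissues, had 7 counts in all of experiment 1, with 9 of 12 libraries at 0, and 18 counts in experiment 2. Enolase is needed by every glycolysing cell and the gene has a near-identical copy elsewhere in the genome. How reads shared by copies were counted was not given in the sources used here, so these low counts give no level for Eno1. The same uncertainty holds for Gapdh, Tpi1, Pgk1, Ldha, Aldoa and Pgam1, which have processed copies in the genome. Car12, a carbonic anhydrase of the cell surface, had 2 counts in each experiment. Slc2a3, the high-affinity glucose transporter GLUT3, had 72 counts in experiment 1 and 29 in experiment 2, where it was left out.

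LPS against vehicle shows how the set behaved in macrophages without the compound. LPS raised 14 of the 30 genes tested and lowered 2. Over all 10285 genes tested, 16% rose and 18.4% fell. Of the 14 that rose, 8 act in hexose transport, its phosphorylation or the phosphofructokinase step, 1 is a lower-pathway enzyme, 1 is Hif1a and 4 are other HIF-1 targets. The median log2 fold change of the set was 0.91, against -0.24 over all genes. Without LPS replicate 1 the set's median was -0.12, with 12 of the 16 calls kept. In 12 of the 30 genes every LPS library lay above every vehicle library, against 16.7% of all genes, and in 3 below, against 27.3%.

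Of the genes of hexose transport and phosphorylation, Hk2, Slc2a1, Hk3, Hk1 and the lysosomal transporter gene Slc2a6 rose. Slc2a6 had 4.46, 7.47 and 6.72 CPM in vehicle and 355, 347 and 234 CPM after LPS. Every LPS library lay far above every vehicle library, a 51.2-fold rise (log2 5.68 ± 0.39 SE, adjusted p = 6.2e-09). Hk2 went from 27.7, 58.1 and 42.9 CPM to 194, 253 and 579 CPM, 7.94-fold higher (log2 2.99 ± 0.41, adjusted p = 2.0e-05). Replicate 3 held the highest Hk2 value, and without it the rise was 5.37-fold (adjusted p = 2.4e-06). Slc2a1 went from 32.6, 16.3 and 29.3 CPM to 130, 116 and 65.4 CPM, 3.99-fold higher (log2 2.00 ± 0.34, adjusted p = 0.00021). Hk3, a hexokinase of myeloid cells, went from 84, 60.5 and 70.4 CPM to 323, 313 and 209 CPM, 3.93-fold higher (adjusted p = 8.7e-05). For Slc2a1 and Hk3 the groups did not overlap, and replicate 3 was the lowest LPS library. Hk1, the hexokinase present in most cells, rose 2.23-fold (log2 1.16 ± 0.31, adjusted p = 0.0070). Slc2a3 moved the other way: it had 18, 5 and 17 counts in vehicle and 0 in every LPS library. Against a floor of 3 counts over the LPS group it was at least 3.66-fold lower (adjusted p = 0.021). That call was lost without vehicle replicate 3 (adjusted p = 0.056), LPS replicate 1 (0.080) or LPS replicate 2 (0.052).

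The committed step of glycolysis is the phosphorylation of fructose 6-phosphate by phosphofructokinase, which is driven by the product of Pfkfb3. Pfkfb3 had 12.4, 17.3 and 11.7 CPM in vehicle and 184, 186 and 89 CPM after LPS, 11.3-fold higher (log2 3.50 ± 0.41, adjusted p = 3.2e-06). The phosphofructokinase gene Pfkp went from 22.1, 23.8 and 18.4 CPM to 126, 84.2 and 50.9 CPM, 4.14-fold higher (log2 2.05 ± 0.34, adjusted p = 0.00013). Its liver-type relative Pfkl rose 2.65-fold (adjusted p = 0.0055). In a fit of only these 2 groups, which called 1250 of all genes higher and 858 lower, the calls of Pfkl (adjusted p = 0.063), Ero1l (0.055) and Vegfa (0.095) were lost, and Slc2a3 and Adm were not tested. For Pfkfb3, Pfkp and Pfkl all LPS libraries exceeded all vehicle libraries. Among the enzymes that follow, Pgk1, which makes the first ATP of the pathway, rose 2.26-fold (log2 1.18 ± 0.33, adjusted p = 0.010), a call lost without LPS replicate 1 (log2 0.90, adjusted p = 0.066). The other 7 tested enzymes of the pathway, Gpi1, Aldoa, Tpi1, Gapdh, Pgam1, Pkm and Ldha, had log2 fold changes between -0.53 and 0.24 and were not called. Pgam1 was at 262, 257 and 261 CPM in vehicle and 326, 259 and 182 CPM after LPS, and Pkm, which makes pyruvate, was at 355, 260 and 294 CPM against 370, 258 and 238 CPM. Pdk1, the kinase that keeps pyruvate out of the mitochondrial oxidation pathway, had a log2 fold change of 0.76 ± 0.60 and was not called. Its LPS libraries had 40.1, 19.7 and 0 CPM, and without LPS replicate 3 it was called higher. In that fit 18.3% of all genes were called higher and 19.6% lower.

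Hif1a itself (Entrez gene 15251, chromosome 12 from 73901324 to 73947554) had 70.5, 76.1 and 96.5 CPM in vehicle and 346, 502 and 90.8 CPM after LPS. It rose 3.90-fold (log2 1.96 ± 0.43, adjusted p = 0.0020), but the groups overlapped because LPS replicate 3 lay among the vehicle values. Without that library it was 5.32-fold higher (adjusted p = 8.1e-07). Egln3, a prolyl hydroxylase that marks HIF-1α for destruction and is itself a HIF-1 target, had 1.36, 0 and 0.16 CPM in vehicle and 6.62, 0 and 0 CPM after LPS and was not called (adjusted p = 0.14).

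Among the other HIF-1 targets, 4 rose and 1 fell. P4ha1, a subunit of the collagen prolyl hydroxylase, went from 92, 162 and 135 CPM to 576, 462 and 1970 CPM, 7.71-fold higher (log2 2.95 ± 0.46, adjusted p = 8.3e-05). LPS replicate 3 set much of that size, and without it the rise was 4.11-fold (adjusted p = 7.8e-06). Higd1a, a small mitochondrial protein, rose 2.80-fold (adjusted p = 0.0041). Ero1l, an oxidase of the endoplasmic reticulum whose current symbol is Ero1a, rose 2.09-fold (log2 1.06 ± 0.33, adjusted p = 0.018). The Ero1l call was lost without vehicle replicate 2 (adjusted p = 0.058), vehicle replicate 3 (0.070) or LPS replicate 1 (0.071). Adm, the vessel-dilating peptide adrenomedullin, had 4, 1 and 0 counts in vehicle and 17, 0 and 0 after LPS. Its call (log2 3.30 ± 1.09, adjusted p = 0.026) rested on a single LPS library: without LPS replicate 1 the estimate was -3.51 (adjusted p = 0.50), without vehicle replicate 3 the adjusted p was 0.091, and without vehicle replicate 1 or LPS replicate 2 the estimate was 4.24 or 3.95. Vegfa, the vessel growth factor, fell from 69.9, 57.4 and 63.2 CPM to 38.4, 32 and 10.9 CPM, 2.20-fold lower (log2 -1.13 ± 0.35, adjusted p = 0.018), with adjusted p = 0.060 without vehicle replicate 1. Mif, Bnip3, Ndrg1, P4ha2 and Ankrd37 had log2 fold changes between -1.06 and 0.09 and were not called. Without LPS replicate 3, P4ha2 was called lower. It had 53, 7 and 78 counts in vehicle and 7, 0 and 10 after LPS, so the library left out held its highest LPS count.

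**Figure D1:**
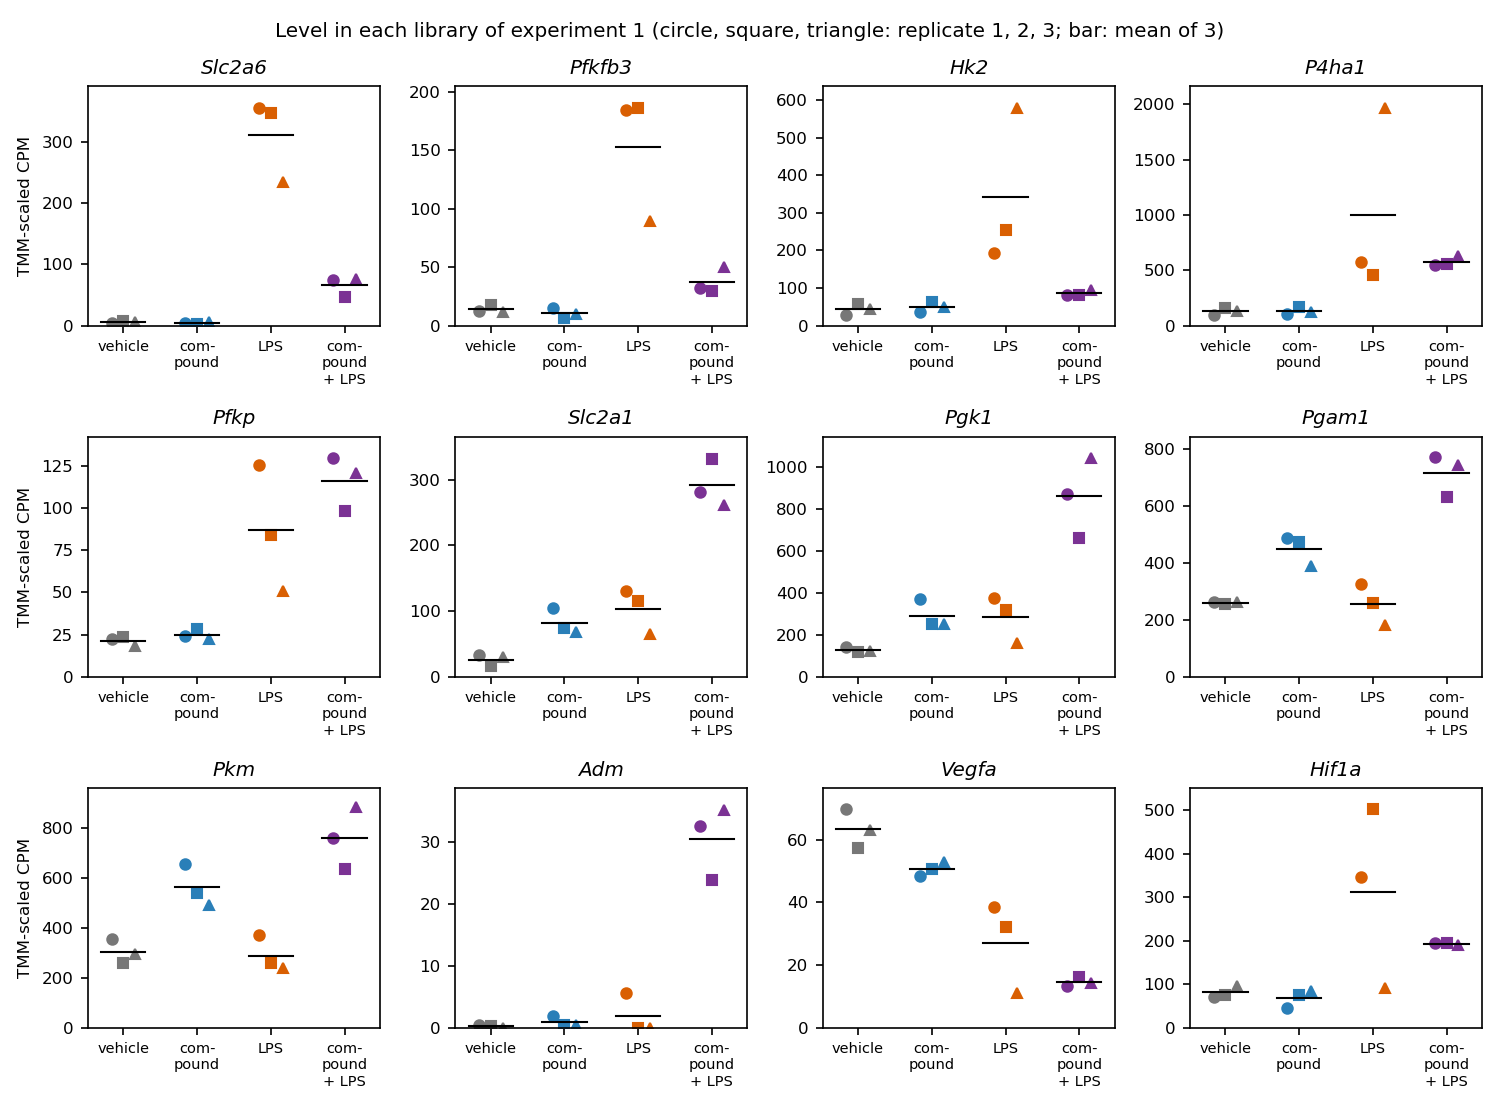
Level of 12 genes of the set in each library of experiment 1, in TMM-scaled CPM on linear axes that start at 0. Points are libraries, with symbols for replicates 1, 2 and 3, and bars are means of 3. Slc2a6, Pfkfb3 and Hk2 were highest after LPS alone and lower with the compound before LPS, while Slc2a1, Pgk1, Pgam1, Pkm and Adm were highest in compound plus LPS.

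Compound against vehicle shows the effect of dimethyl itaconate without LPS. Slc2a1 was the only gene of the 30 that was called. It had 105, 73.8 and 68.2 CPM with the compound, all above the 3 vehicle values given above, and was 3.12-fold higher (log2 1.64 ± 0.34, adjusted p = 0.0097). The call was lost without vehicle replicate 2 (log2 1.41, adjusted p = 0.062) or compound replicate 1 (log2 1.44, adjusted p = 0.067). Over all genes 1.33% rose and 1.51% fell. The set's median was 0.29, against -0.05 over all genes.

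In 11 of the 30 genes every compound library lay above every vehicle library, against 14.6% of all genes, and in 2 below, against 16%. Besides Slc2a1, the 11 include the lower-pathway enzymes Pgk1, Pgam1 and Pkm, which were not called. Pgk1 had 140, 118 and 120 CPM in vehicle and 370, 250 and 249 CPM with the compound (log2 1.20 ± 0.33, adjusted p = 0.060). Pgam1 had 487, 475 and 390 CPM with the compound (log2 0.79 ± 0.28, adjusted p = 0.16), and Pkm had 656, 538 and 493 CPM (log2 0.89 ± 0.28, adjusted p = 0.12). The fit shares its spread with the LPS group. Without LPS replicate 3, Pgk1 (adjusted p = 0.0036), Pkm (0.024), Pgam1 (0.029) and Hk1 (just under the threshold of 0.05) were called higher as well, which made 5 of 30. In that fit 4.27% of all genes were called higher, against 1.33% with the library. DESeq2 called Slc2a1, Pgk1, Pgam1 and Pkm. No gene of the set was lower in the edgeR test by adjusted p, none at an unadjusted p under 0.05, and none by DESeq2, while 5 were higher at an unadjusted p under 0.05. At that unadjusted threshold 6.92% of all genes were higher and 6.89% lower. The 29 genes not called had log2 fold changes between -0.65 and 1.82, the extremes being Ndrg1 and Adm. The sum of the macrophage markers was lower with the compound than in vehicle, as given above. Of the 8 markers 2 were called lower and 0 higher, against 1.51% and 1.33% of all genes, and Mertk did not fall (12.2 against 14.2 CPM). The part of these markers in this comparison was not tested. Hif1a with the compound had 46.1, 74.6 and 85.2 CPM, overlapping vehicle (log2 -0.24 ± 0.42, adjusted p = 0.87).

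Compound plus LPS against LPS shows the effect of the compound on stimulated cells. The genes split: 8 of 30 were higher with the compound and 3 were lower, while over all genes 8.38% were higher and 7.53% lower. The 3 that were lower, Slc2a6, Pfkfb3 and Hk2, had the largest rises after LPS apart from Adm, whose rise rested on 1 library. The genes that were higher included Slc2a1, Aldoa and the lower-pathway enzymes Pgk1, Pgam1 and Pkm. Among these 5 only Slc2a1 and Pgk1 had risen with LPS alone. Both comparisons use the LPS libraries, so their values are given side by side and not as independent evidence. The set's median was 0.85, against 0.13 over all genes. In 13 of the 30 genes every compound plus LPS library lay above every LPS library, against 18.9% of all genes, and in 3 below, against 10.7%.

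Slc2a6 had 74.5, 47.5 and 75.5 CPM with compound plus LPS, below all 3 LPS libraries and above all vehicle libraries. It was 4.75-fold lower than with LPS alone (log2 -2.25 ± 0.33, adjusted p = 0.00016). Pfkfb3 had 32.4, 30 and 50 CPM, 4.14-fold lower (log2 -2.05 ± 0.38, adjusted p = 0.0015). Hk2 had 80.6, 81.8 and 94.5 CPM, 3.96-fold lower (log2 -1.99 ± 0.40, adjusted p = 0.0023) and 2.64-fold lower without LPS replicate 3 (adjusted p = 0.0027). For each of these 3 genes the compound plus LPS libraries lay between the vehicle and the LPS groups without overlapping either.

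Slc2a1 had 281, 332 and 262 CPM with compound plus LPS, above every library of the other 3 groups, and was 2.77-fold higher than with LPS alone (log2 1.47 ± 0.34, adjusted p = 0.0061). Pgk1 had 870, 662 and 1040 CPM, 3.01-fold above LPS, where it had 374, 317 and 158 CPM (log2 1.59 ± 0.33, adjusted p = 0.0035). Pgam1 had 774, 633 and 746 CPM, 2.79-fold higher (log2 1.48 ± 0.28, adjusted p = 0.0017). All compound plus LPS libraries exceeded all others of experiment 1 for Pgk1 and Pgam1. Pkm had 761, 638 and 883 CPM, 2.62-fold higher (log2 1.39 ± 0.29, adjusted p = 0.0032). Aldoa, the aldolase that cuts the 6-carbon sugar, had 216, 179 and 292 CPM after LPS and 603, 479 and 701 CPM with compound plus LPS, 2.61-fold higher (adjusted p = 0.0039). For Pkm and Aldoa the compound plus LPS libraries lay above all LPS and vehicle libraries, and the lowest of them was below the highest compound library for Pkm. Gpi1, Tpi1, Gapdh and Pfkl also lay above all 3 LPS libraries, with log2 fold changes between 0.81 and 1.77, but were not called (adjusted p between 0.069 and 0.13). Same-numbered libraries of these 2 groups correlated weakly in their deviations (0.132, 0.122 and 0.21), against at most 0.0551 for differently numbered ones. Vehicle replicate 2 and LPS replicate 3 also reached 0.207, so pairing was not settled. With replicate number as a block Gapdh was called (log2 2.23 ± 0.68, adjusted p = 0.037) and Ankrd37 was not.

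The HIF-1 targets Adm, Mif and Ankrd37 were also higher. Adm had 32.6, 23.9 and 35.1 CPM with compound plus LPS against 5.63, 0 and 0 CPM after LPS, 11.3-fold higher (log2 3.50 ± 0.81, adjusted p = 0.0071). Without LPS replicate 1 the LPS libraries left were both at 0, and without LPS replicate 2 the log2 fold change was 2.86. With the block it was 4.18 (adjusted p = 0.0033). Mif, a secreted cytokine that inhibits macrophage migration, had 64.6, 43.2 and 38.1 CPM after LPS and 109, 112 and 132 CPM with compound plus LPS, 2.37-fold higher (log2 1.24 ± 0.33, adjusted p = 0.017). Its call was lost without LPS replicate 2 (adjusted p = 0.058), compound plus LPS replicate 1 (0.051) or compound plus LPS replicate 3 (0.063), and with only the 2 groups fitted (0.059). Ankrd37 had 5.96, 4.49 and 1.82 CPM after LPS and 10.6, 21.4 and 12.7 CPM with compound plus LPS (log2 1.67 ± 0.55, adjusted p = 0.045). It stayed called in only 1 of the 12 fits that each left out a library, the one without LPS replicate 1, with adjusted p of up to 0.18 in the others, and 0.055 with the replicate block. It was also lost with RLE scaling (0.053), with no filter (0.061) and with only the 2 groups fitted (0.15).

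Hif1a was at 195, 194 and 190 CPM with compound plus LPS. The 3 libraries were close together and lay between the lowest and the middle LPS value, and the difference was not called (log2 -0.71 ± 0.42, adjusted p = 0.28). Without LPS replicate 3 it was called lower, 2.22-fold (log2 -1.15 ± 0.28, adjusted p = 0.0062). The same fit called Vegfa lower (2.46-fold, adjusted p = 0.0030) and P4ha2 higher (8.38-fold, adjusted p = 0.0085). Vegfa, not called with all libraries (log2 -0.99 ± 0.36, adjusted p = 0.071), was also called lower with RLE scaling and by DESeq2 (adjusted p = 0.0069). Without LPS replicate 3, 9.27% of all genes were called higher and 9.06% lower. P4ha1, at 550, 553 and 627 CPM, had a log2 fold change of -0.79 (adjusted p = 0.23) with that library and 0.13 (adjusted p = 0.80) without it, so its direction rests on LPS replicate 3.

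**Figure D2:**
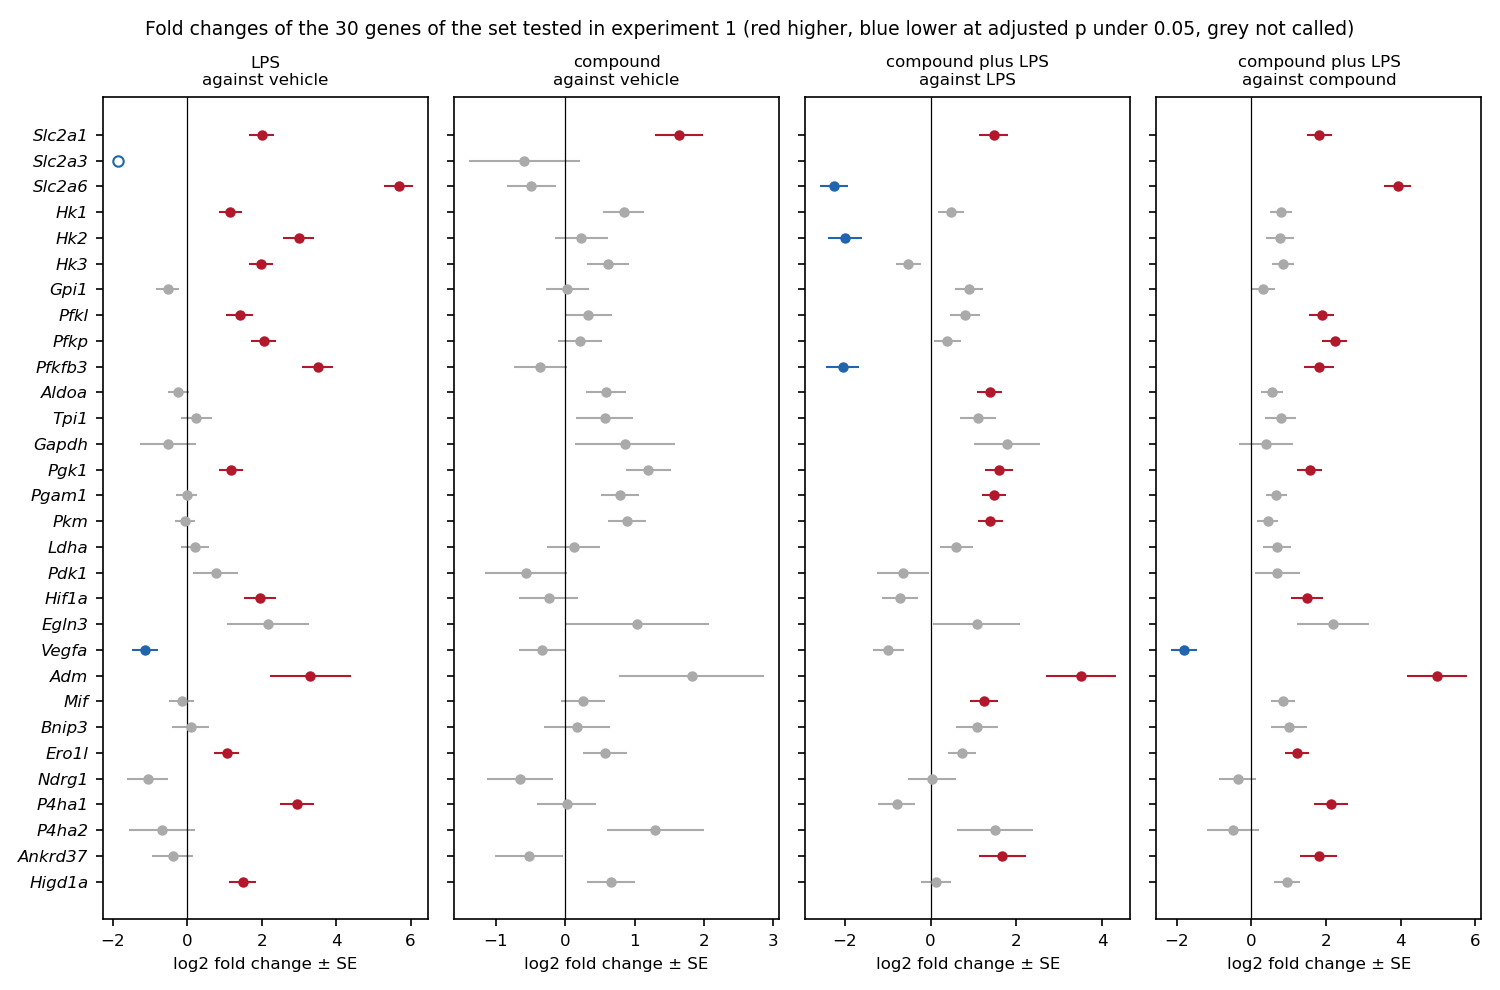
Log2 fold change (x axis, with its standard error) of the 30 genes tested in experiment 1, listed by role, in 4 comparisons. Red and blue mark genes called higher or lower and grey those not called. The hollow point is the bound for Slc2a3, which was at 0 in all LPS libraries, and Slc2a3 is not drawn in the compound plus LPS panels, where that group had 1 count. The x axes differ in range. In the LPS panel Slc2a1, Slc2a6 and the 3 hexokinase genes at the top are red, while Aldoa, Pgam1 and Pkm are red in the panel of compound plus LPS against LPS and grey in the other 3.

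The LPS response of treated cells was read from compound plus LPS against compound. LPS raised 11 of the 30 genes and lowered 1, where over all genes 11.4% rose and 7.56% fell. The set's median was 0.84 and that of all genes -0.06. RLE scaling moved the median of all genes to -0.20 and their calls from 1170 higher and 778 lower to 1030 and 1014 (DESeq2 1212 and 1395), and the 12 calls of the set were kept under both. The genes that rose were Adm, Slc2a6, Pfkp, P4ha1, Pfkl, Slc2a1, Pfkfb3, Ankrd37, Pgk1, Hif1a and Ero1l.

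Adm had 1.88, 0.495 and 0.419 CPM with the compound alone and rose 31.4-fold (log2 4.97 ± 0.80, adjusted p = 0.00016), and 5.99 on the log2 scale without compound replicate 1. Slc2a6 had 4.12, 3.14 and 5.56 CPM with the compound alone and rose 15.2-fold (log2 3.92 ± 0.36, adjusted p = 2.9e-07). Pfkp had 24, 28.2 and 22.3 CPM with the compound and 130, 98.3 and 121 CPM with compound plus LPS, 4.69-fold higher (adjusted p = 7.2e-05). The Pfkp levels after LPS overlapped with and without the compound. P4ha1 rose 4.39-fold from 102, 166 and 126 CPM (adjusted p = 0.0020). Pfkl rose 3.69-fold from 12, 14.7 and 13.2 CPM to 50, 46.8 and 50.3 CPM (adjusted p = 0.00055). Slc2a1 rose 3.54-fold (adjusted p = 0.00060), Pfkfb3 3.50-fold from 15.4, 6.44 and 9.96 CPM (adjusted p = 0.0023), and Pgk1 2.96-fold (adjusted p = 0.0021). In these 8 genes all compound plus LPS libraries exceeded all compound libraries, as they did in 22 of the 30, against 22.3% of all genes.

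Hif1a rose 2.80-fold over the compound alone (log2 1.49 ± 0.43, adjusted p = 0.019), a call lost in 5 of the 6 fits that left out a compound or compound plus LPS library (log2 1.27 to 1.55, adjusted p between 0.052 and 0.11). Ero1l rose 2.34-fold (adjusted p = 0.0099, and 0.067 without compound replicate 2 or without compound plus LPS replicate 1). Ankrd37 rose 3.48-fold from 5.18, 5.12 and 2.52 CPM (adjusted p = 0.014, and 0.096 without compound replicate 3 and 0.094 without compound plus LPS replicate 2). Slc2a3 had 11, 13 and 7 counts with the compound and 0, 1 and 0 with compound plus LPS and was not called (adjusted p = 0.051). It was called lower with RLE scaling, by DESeq2 and without any 1 LPS library. Vegfa had 48.5, 50.7 and 53 CPM with the compound and fell to 13.3, 16.2 and 14.3 CPM, 3.48-fold lower (log2 -1.80 ± 0.35, adjusted p = 0.0011). Without LPS replicate 3, whose spread enters this fit too, 19 genes of the set were called higher, the added ones being Hk1, Hk2, Hk3, Tpi1, Pgam1, Mif, Bnip3 and Higd1a. In that fit 14.6% of all genes were called higher, against 11.4% with the library.

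The interaction of compound and LPS tests whether the LPS response differed with the compound, so it is the test behind any statement that one response was larger. Hk2 alone was called of 30 genes, its LPS response being 4.65-fold smaller with the compound (log2 -2.22 ± 0.55, adjusted p = 0.035). Over all genes 1.39% were called in the positive and 1.52% in the negative direction. Without LPS replicate 3 the Hk2 estimate was -1.66 (adjusted p = 0.017), and the call was lost in 8 of the 12 fits that each left out a library (vehicle replicates 1 and 3 and each compound and compound plus LPS replicate, adjusted p between 0.052 and 0.11). Slc2a6 (log2 -1.75 ± 0.48, adjusted p = 0.054) and Pfkfb3 (log2 -1.69 ± 0.54, adjusted p = 0.099) were not called. Without LPS replicate 3 both were (adjusted p = 0.0081 and 0.011), with Hk3 (log2 -1.34, adjusted p = 0.033), in a fit that called 3.26% of all genes positive and 4.33% negative. DESeq2 called all 3, and RLE scaling, no filter and minimum count 30 each called Slc2a6. None of the set was called positive by edgeR, 2 had an unadjusted p under 0.05 (10.9% of all genes), and DESeq2 called Ankrd37. For Slc2a1, Pgk1, Pgam1 and Pkm the interaction was between -0.17 and 0.69 with adjusted p from 0.37 to 0.90.

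Irg1-/- against wild type asks what loss of the itaconate-making enzyme changes after 24 h of LPS and interferon gamma. The main edgeR fit, without a replicate block, called 0 of the 29 genes tested, and DESeq2 also called 0. In the main fit 0.0527% of all genes were lower and 0.0105% higher. With replicate number as a block, an alternative fit, 12 of the 29 were lower in the knockout and 0 higher. Over all 9491 genes tested, 3.36% were lower and 2.9% higher in that fit. Same-numbered libraries of the 2 genotypes deviated together (correlations of 0.401, 0.383 and 0.486), which is why the block is given. In the main fit, at an unadjusted p under 0.05, 7 were lower and 0 higher, against 3.65% and 3.36% of all genes. The fold changes were nearly the same in both fits and their standard errors smaller with the block, which leaves 2 residual degrees of freedom.

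Of the 29 genes, 21 were lower in the knockout in all 3 same-numbered pairs, against 20.1% of all genes tested. In 9, every knockout library lay below every wild-type library, against 7.24% of all genes. Only Gapdh and Hif1a were higher in all 3 pairs. The set's median with the block was -0.31, against 0.01 over all genes. The macrophage markers summed to 2160 to 2600 CPM in the knockout and 2360 to 2670 CPM in wild type, neutrophil markers to 8.63 to 12.7 against 11.7 to 16.9 CPM, and their part in these differences was not tested. The unblocked adjusted p was 0.26 for P4ha2, 0.42 for Slc2a1 and 0.57 for Bnip3 and Pgam1.

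The glucose transporter gene Slc2a1 had 276, 209 and 265 CPM in wild type and 156, 145 and 179 CPM in the knockout. The groups did not overlap, and with the block it was 1.56-fold lower (log2 -0.64 ± 0.11, adjusted p = 4.1e-05). The 4 glycolytic enzyme genes called lower were Pfkp, Aldoa, Pgam1 and Ldha. Pfkp had 117, 150 and 134 CPM in wild type and 68.2, 111 and 102 CPM in the knockout, 1.44-fold lower (adjusted p = 0.0025). Pgam1 had 607, 628 and 661 CPM against 431, 452 and 477 CPM, lower with a log2 fold change of -0.48 ± 0.09 (adjusted p = 0.00046). Ldha, the lactate dehydrogenase of muscle and macrophages, had 545, 474 and 570 CPM against 367, 415 and 429 CPM, 1.31-fold lower (adjusted p = 0.0076). For Pfkp, Pgam1 and Ldha all knockout libraries lay below all wild-type libraries. Aldoa had 465, 526 and 603 CPM against 343, 415 and 539 CPM, where the groups overlapped although each pair fell, 1.24-fold lower (adjusted p = 0.038). The hexokinases, Slc2a6 and Pfkfb3 were not called: Hk1, Hk3, Slc2a6 and Pfkfb3 had log2 fold changes between -0.02 and 0.05, and Hk2 had -0.25 ± 0.11 (adjusted p = 0.18).

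**Figure D3:**
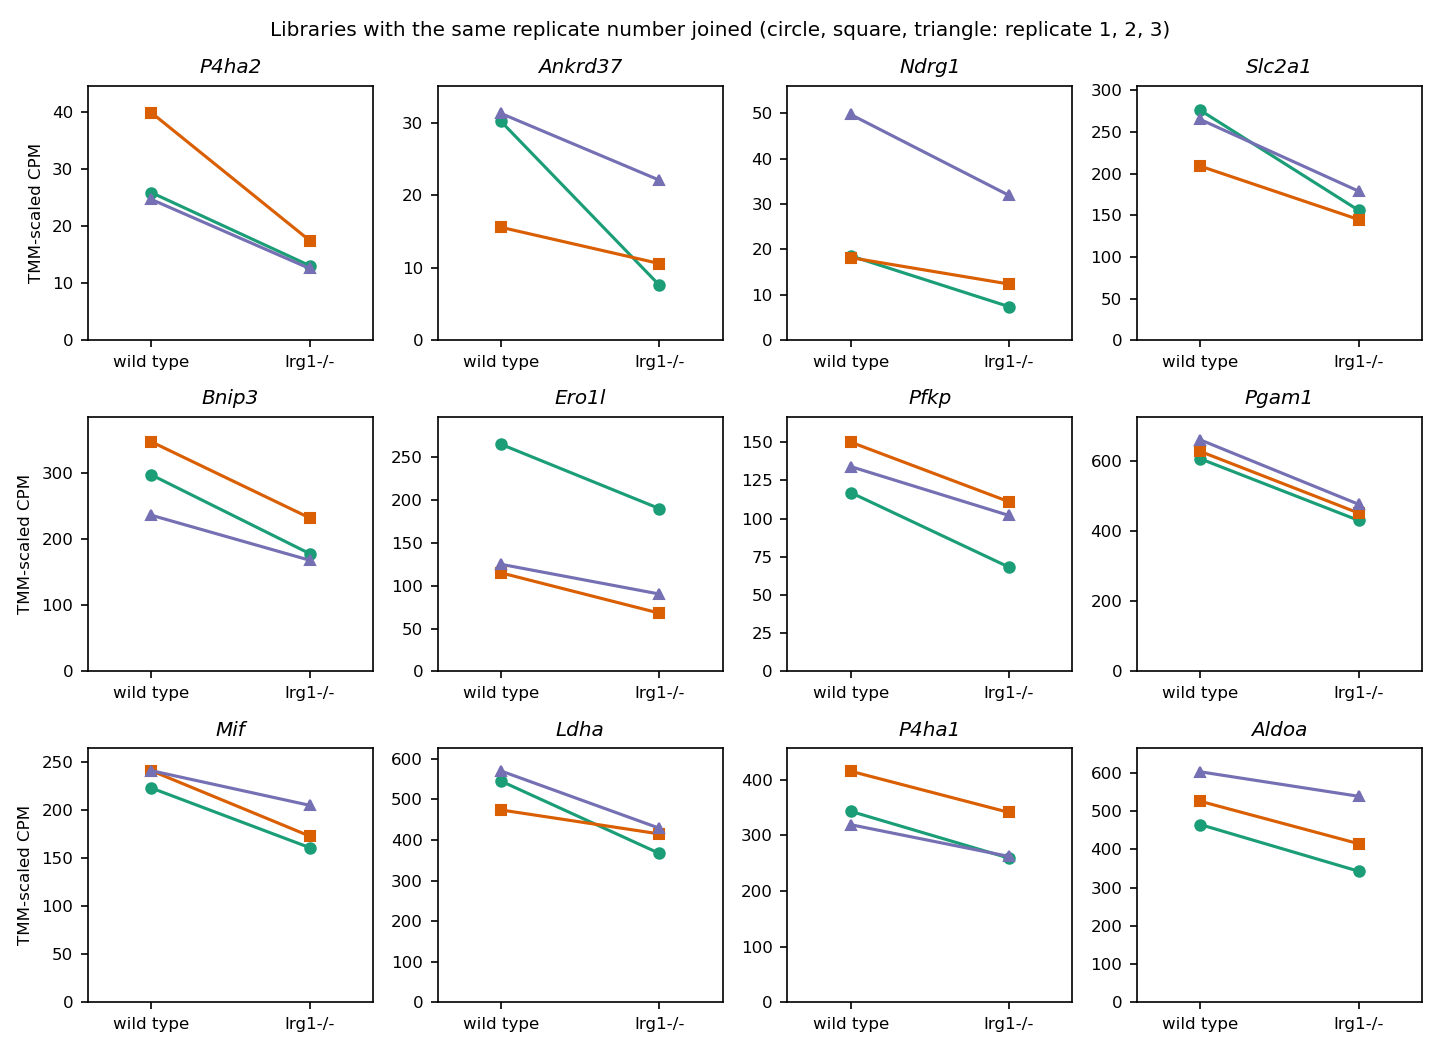
Level of the 12 genes called lower with the replicate block, in TMM-scaled CPM on linear axes that start at 0. Lines join libraries with the same replicate number, and every line of the 12 panels falls from wild type to Irg1-/-.

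The remaining 7 genes called lower were HIF-1 targets outside glycolysis. P4ha2, a second collagen prolyl hydroxylase subunit (Entrez gene 18452, chromosome 11 from 54100924 to 54131668), had the largest fold of the 12. It had 25.9, 39.9 and 24.7 CPM in wild type and 13.1, 17.5 and 12.6 CPM in the knockout, 2.06-fold lower (log2 -1.05 ± 0.20, adjusted p = 0.00028). Ankrd37 had 30.2, 15.6 and 31.3 CPM against 7.62, 10.6 and 22.1 CPM, 1.97-fold lower (adjusted p = 0.0050). Its groups overlapped, and without the replicate 1 pair the difference was -0.52 on the log2 scale and not called (adjusted p = 0.20). Ndrg1, a stress-response gene, had 18.6, 18.2 and 49.7 CPM against 7.43, 12.4 and 31.9 CPM, with overlap, 1.73-fold lower (adjusted p = 0.0098). Bnip3, which marks mitochondria for removal, had 297, 347 and 236 CPM against 178, 232 and 168 CPM, 1.52-fold lower (log2 -0.60 ± 0.10, adjusted p = 5.8e-05). Ero1l had 265, 115 and 125 CPM against 190, 68 and 90.3 CPM, 1.47-fold lower (adjusted p = 0.00086). Replicate 1 of both genotypes stood above the others for Ero1l, so the groups overlapped while each pair fell. Mif had 223, 241 and 241 CPM against 161, 173 and 205 CPM, 1.31-fold lower (adjusted p = 0.014) with no overlap. P4ha1 had 343, 415 and 319 CPM against 259, 341 and 262 CPM, 1.25-fold lower (adjusted p = 0.034).

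Leaving out 1 same-numbered pair at a time, a check added after the data were seen, left 8, 9 and 7 of the 12 calls without pairs 1, 2 and 3. Slc2a1, Pfkp, Pgam1, Bnip3, Ero1l and P4ha2 were called in all 3 of these fits. Aldoa and P4ha1 were called in none of them, Mif and Ldha lost their call without pair 3 (adjusted p = 0.058 and 0.12), Mif without pair 2 (0.15), and Ndrg1 without pair 1 (0.054) or pair 3 (0.13). All 12 kept their direction. Of the 12 genes, 11 have an upstream window in the RefSeq table, and 10 of those hold a match to the hypoxia response element core, near the share of the whole set (26 of 30).

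Hif1a transcripts had 459, 340 and 316 CPM in wild type and 508, 349 and 319 CPM in the knockout, with a log2 fold change of 0.07 ± 0.10 (adjusted p = 0.77). In the fit without the block it was 0.08, -0.15 without knockout replicate 1 and -0.01 without wild-type replicate 3. Egln3 had 10.6, 10.2 and 17 CPM against 7.43, 7.41 and 11.1 CPM and was not called (log2 -0.54 ± 0.27, adjusted p = 0.27). Vegfa had 162, 194 and 250 CPM against 195, 189 and 233 CPM (log2 0.04 ± 0.11, adjusted p = 0.90), and Adm had 8.62, 5.42 and 5.3 CPM against 4.19, 5.03 and 2.24 CPM (log2 -0.80 ± 0.42, adjusted p = 0.30). The transcript of the factor itself did not pass the test, while 12 of the other genes did. These counts measure transcripts and say nothing of HIF-1α protein, which is controlled by its destruction.

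**Figure D4:**
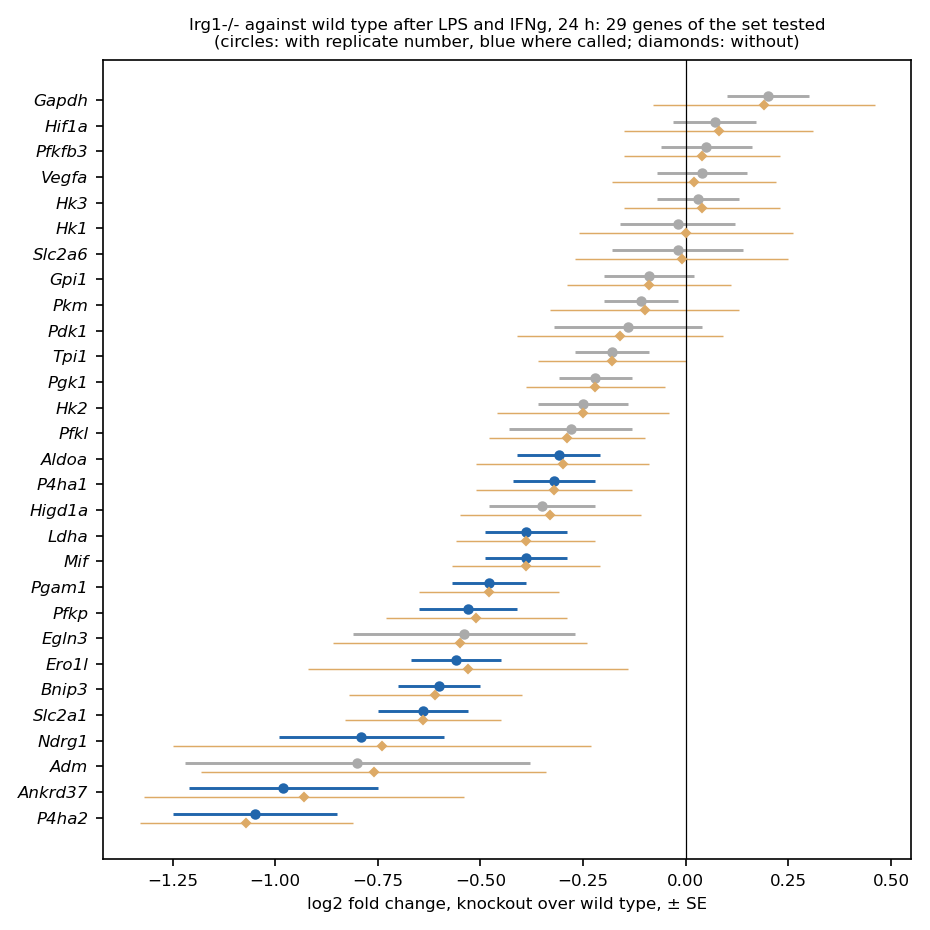
Log2 fold change of Irg1-/- over wild type (x axis) for the 29 genes tested, ordered by size, with standard errors. Circles are from the fit with replicate number, blue where called lower, and diamonds from the fit without it. The estimates of both fits nearly coincide, and the intervals with replicate number are the narrower ones for most genes.

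The compound experiment and the knockout experiment share no library. Of the 8 genes of the set higher in compound plus LPS against LPS, 5 were lower in the knockout with the block: Slc2a1, Aldoa, Pgam1, Mif and Ankrd37. They make up 62.5% of the 8 and 41.7% of the 12. Of the 29 genes of the set tested in both experiments, 12 were lower in the knockout. Without the block edgeR called 0 of the set in the knockout. Ankrd37 and Mif lost their calls with the compound in several fits that left out a library. Ankrd37, Aldoa and Mif lost their knockout calls in fits that left out a pair, as given above. Of the 9242 genes tested in both experiments, 791 were higher with the compound and 308 lower in the knockout. Both held for 70, which is 8.85% of the 791 and 22.7% of the 308. Among all genes 42 were lower in both comparisons, 5.92% of those lower with the compound, and 11 were higher in both. In the set 0 were lower in both and 0 higher in both. The compound was given before 4 h of LPS and the knockout cells had 24 h of LPS with interferon gamma, so time and stimulus differ too. Slc2a6, Pfkfb3 and Hk2, the genes lower with the compound, were not called in the knockout.

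A second list of 69 other genes of glycolysis and the HIF pathway, of which 55 were tested in experiment 1 and 51 in experiment 2, was counted in the same way. LPS raised 7 and lowered 13 of the 55, against 16% and 18.4% of all genes. The largest rises were in Ak4, a mitochondrial adenylate kinase (log2 7.21, and 5.90 without LPS replicate 3), Slc16a1, a lactate and pyruvate carrier (3.18), Cited2, which competes with HIF-1 for a shared coactivator (2.43), and Slc16a3, another lactate carrier gene (2.19). The largest falls were in Bpgm, which diverts a glycolytic intermediate (at least 7.50-fold, with 0 counts after LPS), the chemokine receptor gene Cxcr4 (log2 -6.19, and -5.40 and -7.12 without LPS replicates 1 and 2), Pck2 (-4.13, and -3.49 without LPS replicate 2) and Pfkfb2 (-3.88, and -4.47 without LPS replicate 3). Pck2, a mitochondrial enzyme on the gluconeogenic side, had 10 counts in all after LPS and none without LPS replicate 1. Pfkfb2, a relative of Pfkfb3, had 8.

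The compound alone changed 1 gene of the second list, where 1.51% of all genes were lower: Cxcr4 (log2 -2.19, adjusted p = 0.014), a call lost without vehicle replicate 2 or any 1 compound library (adjusted p between 0.056 and 0.097). In compound plus LPS against LPS, 6 were higher and 2 lower, against 8.38% and 7.53% of all genes. Slc16a1 (log2 -3.03) and Cited2 (-2.01) were lower, and both had risen with LPS. Higher were Bpgm (at least 3.85-fold, the call lost with the replicate block, without LPS replicate 1 or 2, and without compound plus LPS replicate 1 or 3), Hmox1, which breaks down haem (2.96), Insig2, a brake on sterol synthesis (2.02), and Tfrc, the transferrin receptor (1.61), with Plin2 and Egln1. The Insig2 call was lost without LPS replicate 1 or compound plus LPS replicate 1 or 2, the Egln1 call without LPS replicate 1 or any 1 compound plus LPS library, and both with only the 2 groups fitted. In compound plus LPS against compound 5 rose and 8 fell, against 11.4% and 7.56% of all genes, with the largest rises in Ak4 (4.39), Hmox1 (2.32), Slc16a3 (1.88) and Vhl (1.49), which targets HIF-1α for destruction. The largest falls were in Cxcr4 (-3.95, and -4.75 without compound plus LPS replicate 3), Bhlhe40 (-3.70), Pfkfb2 (-2.71) and Rora (-2.50). The interaction was called for 3, against 1.39% of all genes in the positive and 1.52% in the negative direction: Slc16a1 (-2.85), Cited2 (-1.95) and Hmox1 (1.98). The Hmox1 call was lost in 9 of the 12 fits that each left out a library (adjusted p between 0.050 and 0.12).

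In the knockout, edgeR without the block called 0 of the 51 second-list genes tested, with 5 higher and 8 lower at an unadjusted p under 0.05 (3.36% and 3.65% of all genes), and DESeq2 called 1, Hilpda, lower. The median without the block was 0.37 over the 9 other glycolytic enzyme genes tested and -0.25 over the 24 other HIF targets tested. With the block 7 of the 51 were lower and 3 higher, against 3.36% and 2.9% of all genes, with a median of -0.12. Hilpda, a lipid droplet protein, had 155 ± 28.8 CPM (SD, n = 3) in wild type and 76.3 ± 4.16 CPM in the knockout, 2.02-fold lower. Mpc1, a subunit of the mitochondrial pyruvate carrier, was 1.59-fold lower, Ak4 1.56-fold lower and Pgm1, a phosphoglucomutase, 1.47-fold lower (adjusted p = 0.37 without pair 3). Higher were Slc2a9, a urate and hexose transporter (2.22-fold, adjusted p = 0.071 without pair 2), Tfrc (1.79-fold, adjusted p = 0.11 without pair 2) and Cited2 (1.67-fold). Among the genes named here, Hilpda, Mpc1, Ak4 and Cited2 kept their call without any 1 pair. Cited2 was thus lower than LPS alone with the compound and higher than wild type in the knockout.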

How the data were processed

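Transcripts of 18 libraries were counted at their 3′ ends. Per the labels' protocols, RNA was captured with barcoded oligo-dT primers, libraries were strand-specific and pooled by Actb qPCR, and 12 PCR cycles were run with no molecular identifiers mentioned, so counts include PCR copies and intervals cover no more than the spread between libraries. Per the submitters' processing notes, the authors used STAR, HTSeq, DESeq2 and the mm10 build to make the deposited whole-number counts per gene. Not given in the sources used here are the versions, the annotation and the handling of shared reads.

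The deposited counts of the experiments were analysed separately in R 4.3.3. Genes were kept by the edgeR 4.0.16 function filterByExpr (minimum count 10), scaled by TMM and tested with the edgeR quasi-likelihood F test, with Benjamini-Hochberg adjustment over all genes tested and a threshold of 0.05. Experiment 1 was fitted over all 12 libraries (8 residual degrees of freedom), experiment 2 over 6 (4). The standard error is the log2 fold change divided by the square root of F. limma was at 3.58.1. A group with 0 counts was given a floor of 3 counts, and the bound was printed in place of the fold. Of the 24052 gene identifiers, 23969 matched a current symbol and 83 did not.

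The replicate numbers of the labels were checked by correlating same-numbered libraries' deviations from their group means. All 3 correlations exceeded 0.1 for Irg1-/- and wild type (0.401, 0.383 and 0.486) and for LPS and compound plus LPS (0.132, 0.122 and 0.21), so the block by replicate number is given there. In the other pairs of groups at least 1 correlation was not above 0.1. For vehicle and compound they were 0.227, 0.236 and 0.0614, each above those of differently numbered libraries (at most 0.0485). Vehicle replicate 2 and LPS replicate 3, which differ in number, correlated at 0.207. Whether vehicle and compound, or LPS and compound plus LPS, were paired was therefore not settled. All genes of the set that passed are named, with every library's value for the 8 largest in each direction and for Hif1a, and second-list genes for the 4 largest in each direction. The members and lists were chosen with earlier results of these data known. 1 gene was left out of the second list and is not reported here. Alternatives were RLE and TMMwsp scaling, no filter, minimum count 30, DESeq2 1.42.0, only the groups compared, the replicate block and leaving out each library. Scripts were tested on simulated data. Upstream windows came from RefSeq on GRCm38.p6.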

Additional observations from a re-analysis of the deposited data

Results flagged for a closer look

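Of the 30 genes of the set and 55 of the second list tested in experiment 1, 4 responded to LPS under the compound by an amount that differed from the response without it, by the interaction term of the edgeR fit over all 12 libraries. Over all genes, 1.39% were called in the positive and 1.52% in the negative direction. Slc16a1 rose from 10.2 ± 4.12 CPM (SD, n = 3) to 92.6 ± 44.1 CPM without the compound, and had 8.82 ± 1.13 and 11.1 ± 0.827 CPM with it (-2.85 ± 0.56, adjusted p = 0.0087). Cited2 rose from 149 ± 12.3 to 801 ± 73.4 CPM without it, and had 143 ± 20.7 and 199 ± 39.1 CPM with it (-1.95 ± 0.38, adjusted p = 0.0079). Both calls were kept in all 12 fits that each left out a library. Hk2 (-2.22 ± 0.55, adjusted p = 0.035) lost its call in 8 of those fits. Hmox1 went the other way, with 88.7 ± 43.3 CPM in vehicle and 112 ± 9.36 CPM in LPS against 174 ± 57.3 and 866 ± 229 CPM with the compound (1.98 ± 0.50, adjusted p = 0.041), and lost its call in 9 of those fits.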

How the results depend on the processing

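Of the genes of the set, LPS lowered 1 at minimum count 30, 0 with only the 2 groups compared (858 of all genes), and 1 to 3 with each library left out, where the median ranged from -0.12 to 1.14 and the log2 fold change of Adm from -3.51 to 4.24. For compound against vehicle, the set's higher count was 2 with no filter (236 of all genes), 4 with DESeq2 (303 higher and 351 lower of all genes) and 5 with only the 2 groups (557 and 456). It was 0 to 5 with a library left out (61 to 454 higher and 75 to 349 lower of all genes). For compound plus LPS against LPS, all genes gave 273 higher and 380 lower with only the 2 groups, and 499 to 1106 and 386 to 963 with a library left out, where 3 to 5 of the set were lower. For compound plus LPS against compound, RLE scaling and DESeq2 each gave 2 of the set lower (DESeq2 1395 of all genes). Only the 2 groups gave 20 higher (1539 of all genes lower). Leaving out a library gave 9 to 19 higher, 1 to 2 lower, 451 to 1275 of all genes lower and a median of 0.80 to 1.06.

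For the interaction, 2 of the set were lower with RLE scaling, with no filter (236 higher and 261 lower of all genes) and at minimum count 30. DESeq2 gave 1 higher and 4 lower (424 and 392 of all genes). Leaving out a library gave 0 to 4 lower, 52 to 346 higher and 78 to 460 lower of all genes, and a Hif1a interaction of -0.93 to 0. For the knockout, no filter gave 15 higher and 25 lower of all genes, DESeq2 13 and 23, TMMwsp 2 higher, and leaving out a library 0 to 1 and 3 to 5, with Hif1a at -0.15 to 0.26.

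The replicate block in the knockout comparison gave 12 of the set lower and 275 higher and 319 lower of all genes. Same-numbered libraries deviated together there, but the labels do not say that they were paired. Leaving out a pair, an alternative chosen after seeing the data, gave 7 to 9 lower of the set and 149 to 306 higher and 142 to 325 lower of all genes, with 1 residual degree of freedom. In experiment 1 the block removed the Ankrd37 call and added Gapdh in compound plus LPS against LPS, and changed no call in LPS or compound against vehicle or in the interaction. In compound plus LPS against compound, whose same-numbered libraries correlated at 0.0305, -0.00362 and -0.163, it added Hk3 and Mif. The cause of these changes was not tested, apart from the smaller number of genes or libraries that some alternatives hold by construction. At the depth of LPS replicate 3, with 955718 counts, differences in genes of few counts such as Slc2a3, Egln3 and Adm were not detectable reliably.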
